A study of Mus musculus with 2 samples.

Results

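Clustered histone genes encode the core histones H2A, H2B, H3 and H4 and the linker histone H1 from arrays of near-identical, mostly intronless copies. Here they are all genes whose symbol in the deposited tables begins with Hist1h, Hist2h, Hist3h or Hist4h: 66 of the 17244 genes listed for either library. They comprised 6 H1, 18 H2A, 17 H2B, 12 H3 and 13 H4 genes. The study is about how germ cells die by apoptosis in the testis before birth. It profiled germ cells of male embryos of CD1, an outbred mouse strain, by 10x v2 droplet single-cell RNA-seq, with 1 library from the embryonic stage E13.5 and 1 from E12.5. Both libraries were sorted by FACS for Oct4GFP, a green fluorescent reporter of the germ cell gene Pou5f1, and no other treatment or genotype is given for either. How many embryos were pooled is not given in the labels.

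Most mRNAs of these genes are made in S phase, when new DNA has to be packed into nucleosomes, and are degraded soon after DNA synthesis ends. They are cut just after a short hairpin, the stem-loop, which the protein Slbp binds, and so end without a poly(A) tail. Core histones form the nucleosome, whereas H1 binds the DNA between nucleosomes. Fetal male germ cells divide until about the later of these stages and then arrest, as background from the field. The 10x assay primes on poly(A) sequence with an oligo-dT primer, so it detects such mRNAs only through genomically encoded runs of A or through the fraction that is polyadenylated. The levels below are therefore UMI counts (molecules counted once by their molecular identifier) of what this priming captured, and not total histone mRNA.

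Stem-loops are shown first because an mRNA cut there has no poly(A) tail for the assay to prime on. Those of the H1 and H2A genes at a mean of 10 CPM or more are given where a match was found. The most abundant H3 and H4 genes follow. No match was found in the annotated 3′ UTR of Hist1h1b and Hist1h1a, which are also abundant. The 16 bases in capitals are the match to the stem-loop, found by a script in the 3′ UTR of the annotated GRCm38 transcript and read on the gene's own strand.

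Hist1h2ap: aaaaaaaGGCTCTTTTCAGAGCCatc

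Hist1h1e: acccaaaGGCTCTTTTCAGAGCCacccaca

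Hist1h2ae: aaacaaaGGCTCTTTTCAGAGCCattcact

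Hist1h1c: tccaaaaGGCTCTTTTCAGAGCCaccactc

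Hist1h3e: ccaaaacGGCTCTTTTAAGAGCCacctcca

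Hist1h4i: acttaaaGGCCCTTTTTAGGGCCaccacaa

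The H1 and H2A genes shown share 1 stem-loop, letter for letter, while Hist1h3e differs from them in the loop and Hist1h4i in both stem and loop. The annotated Hist1h2ap transcript ends 3 bases after its stem-loop. The other 5 are annotated to run on past it, by 1153 bases in Hist1h1e, 840 in Hist1h1c, 369 in Hist1h3e, 330 in Hist1h4i and 151 in Hist1h2ae. Hist1h2ap has a run of 12 A directly before its stem-loop, shown here in capitals with its surroundings, starting at base 30, counted from the first base of the stop codon as 1.

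Hist1h2ap A run: cccgaaaagAAAAAAAAAAAAggctctttt

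Of all members, 4 had a run of 10 or more A in the annotated 3′ UTR, Hist1h2ap, Hist1h2ao, Hist1h2be and Hist1h2ac, and together they took 26.1% of member UMIs at E13.5 and 27.8% at E12.5. Nearly all of that was Hist1h2ap. Whether a given UMI came from such a run or from a polyadenylated transcript cannot be read from the tables.

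The E13.5 library held 2992 barcodes and 59842242 UMIs, and the E12.5 library 2847 barcodes and 60383440 UMIs. Those with at least 500 genes and less than 10% of UMIs from mitochondrial genes were clustered, and clusters were called germ-like from a list of 14 germ cell markers. Germ-like cells were 2554 at E13.5 (median 21837 UMIs) and 2498 at E12.5 (median 23481 UMIs). The clustering used all variable genes, these members included, but every germ-like cluster was summed, so that no member chose cells within a stage. Different clusters held the cells of each library: clusters 2, 3, 5 and 6 were mostly E13.5, and clusters 0, 1, 4 and 9 mostly E12.5. In all, 24 barcodes were listed in both tables. The libraries gave 58596390 germ-like UMIs at E13.5 and 59673637 at E12.5, and levels are UMIs per 1000000 of these (CPM). As there is a single library per stage, the libraries were compared without any test of replicates, the stage cannot be told apart from its library, and every 95% interval covers counting error only.

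The clustered histone genes as a whole were lower at E13.5. They took 24037 UMIs or 410.2 CPM at E13.5 (exact Poisson interval 405.0 to 415.4) and 42234 UMIs or 707.8 CPM at E12.5 (701.0 to 714.5). This made a ratio, E13.5 over E12.5, of 0.580 (exact conditional binomial interval 0.570 to 0.589), 1.73-fold lower. All classes were lower, but not by the same amount. H2B, a core histone, was lowest in ratio, at 0.464 (0.425 to 0.505), with 13.3 CPM at E13.5 and 28.8 CPM at E12.5. H1 followed at 0.549 (0.537 to 0.561), with 213 CPM at E13.5 and 387 CPM at E12.5. H2A stood at 0.610 (0.594 to 0.626), with 154 CPM at E13.5 and 252 CPM at E12.5. H3 and H4, which together form the inner tetramer of the nucleosome, were closest between the libraries, and their counting intervals overlapped. H3 had 13.2 CPM at E13.5 and 17.1 CPM at E12.5, a ratio of 0.774 (0.704 to 0.850). H4 had 17.4 CPM at E13.5 and 22.6 CPM at E12.5, a ratio of 0.770 (0.709 to 0.836).

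H1 and H2A held most of the counts in both libraries. H1 took 51.8% of member UMIs at E13.5 and 54.7% at E12.5, and H2A 37.5% at E13.5 and 35.6% at E12.5. Nucleosomes hold the core histones in equal numbers, so these shares are not shares of protein, and counts of different genes also depend on how well each is primed. The 52 members with a Hist1 symbol, all annotated on chromosome 13, took 97.7% of member UMIs at E13.5 and 97.8% at E12.5. Of these, Hist1h2al lies apart from the rest, at chr13:51202727-51203065. The 14 members with other symbols were 11 Hist2, 2 Hist3 and 1 Hist4 genes, and none of them came near the abundant Hist1 genes.

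A few genes made up most of the signal. The 3 most abundant, Hist1h2ap, Hist1h1b and Hist1h1e, took 66.7% of member UMIs at E13.5 and 71.7% at E12.5, and the 6 with a mean of 10 CPM or more took 82.8% at E13.5 and 84.3% at E12.5. At the other end, 43 members at E13.5 and 36 at E12.5 were under 1 CPM.

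Hist1h2ap, a canonical H2A gene at chr13:21833026-21833507 on the minus strand, had the most UMIs of all. It stood at 105 CPM at E13.5 (6164 UMIs) and 193 CPM at E12.5 (11512 UMIs), a ratio of 0.545 (0.529 to 0.562). Hist1h1b, the linker histone gene called H1f5 in RefSeq (chr13:21779883-21780625, minus strand), was the most abundant H1 gene. It had 96.2 CPM at E13.5 (5635 UMIs) and 167 CPM at E12.5 (9944 UMIs), a ratio of 0.577 (0.558 to 0.596). Its gene model ends at the stop codon, so no stem-loop could be looked for. Hist1h1e, called H1f4 (chr13:23620629-23622558, minus strand), had 72.1 CPM at E13.5 (4222 UMIs) and 148 CPM at E12.5 (8841 UMIs), a ratio of 0.486 (0.469 to 0.505). Its exon overlaps that of Hist1h2be on the same strand, so reads there could belong to either.

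Of the remaining linker histone genes, Hist1h1a (chr13:23763666-23764406, plus strand) had 23.5 CPM at E13.5 and 36.3 CPM at E12.5, a ratio of 0.647 (0.605 to 0.693). Hist1h1c (chr13:23738808-23740367, plus strand) had 12.1 CPM at E13.5 and 24.3 CPM at E12.5, a ratio of 0.498 (0.455 to 0.546). Linker histone genes thus differed among themselves beyond counting error: the intervals of Hist1h1a and Hist1h1c do not overlap.

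Hist1h2ae, another canonical H2A gene (chr13:23570517-23571220, minus strand), did not follow the rest. It had 30.5 CPM at E13.5 (1786 UMIs) and 28.4 CPM at E12.5 (1695 UMIs), a ratio of 1.07 (1.0035 to 1.15). Among H2A UMIs its share was 19.8% at E13.5 and 11.3% at E12.5. Without it, the other 17 H2A genes had a ratio of 0.551 (0.535 to 0.567). None of the 50-base stretches in the last 200 bases of its transcript is shared with another annotated transcript, so its counts are less open to mixing with paralogs than those of Hist1h2ap.

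Hist1h2bc, the H2B gene with the most UMIs, had the lowest ratio of the 29 members abundant enough to be sized by the size rule (a mean of 1 CPM or more and 3 or more UMIs in each library). It stood at 4.83 CPM at E13.5 (283 UMIs) and 13.8 CPM at E12.5 (825 UMIs), a ratio of 0.349 (0.304 to 0.400), or 2.86-fold lower (2.50 to 3.29). Its gene model (chr13:23684199-23692908, plus strand) has no stem-loop in the annotated 3′ UTR. Without it the remaining H2B genes had a ratio of 0.569 (0.509 to 0.636), close to that of H1. Outside the germ cells, Hist1h2bc was high in the 25 Sertoli-like barcodes at E13.5, at 177 CPM (52 UMIs). Among the germ-like cells it was high in a cluster led by p53 targets that held 3 cells at E13.5 and 25 at E12.5. In that cluster it had 115 CPM at E12.5 (62 UMIs). The 10 Sertoli markers summed to 15.2 CPM in germ-like cells at E13.5 and 12.8 CPM at E12.5. The part of these barcodes in the ratio of Hist1h2bc was not tested beyond leaving out that cluster, which gave 0.372.

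By the ratio, 29 members at a mean of 1 CPM or more and with 3 or more UMIs in each library could be sized. Of these, 20 were at least 1.5-fold lower at E13.5 and none was at least 1.5-fold higher. Of all 11283 genes sized the same way, 27.3% were at least 1.5-fold apart in either direction and 13.8% were lower. The minimum itself bears on this count. Of the 29, 6 were under 1 CPM at E13.5 and passed through their E12.5 level, so that they had to be lower, and 5 of the 20 are among them. None was under 1 CPM at E12.5. Of the 23 members at 1 CPM or more in both libraries, a level chosen after seeing the data, 15 were at least 1.5-fold lower, where 12.1% of all genes at that level were. The median log2 ratio was -0.76 over the 29 members and -0.0073 over all genes sized. Ratios ran from 0.349 to 1.16, and 24 of the 29 intervals lay wholly under 1 and 1 wholly above it. By class, 4 of 5 H1, 9 of 11 H2A, 5 of 6 H2B, 1 of 4 H3 and 1 of 3 H4 genes were at least 1.5-fold lower.

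The highest ratios belonged to genes of 3 classes. Hist1h3c, an H3 gene, had 3.38 CPM at E13.5 and 2.92 CPM at E12.5, a ratio of 1.16 (0.941 to 1.43), followed by Hist1h2ae. Hist1h4d, an H4 gene, had 6.42 CPM at E13.5 and 6.72 CPM at E12.5, a ratio of 0.955 (0.827 to 1.10). The intervals of Hist1h3c and Hist1h4d include 1. At the low end stood Hist1h2bc and 2 scarce genes. Hist1h2bm, an H2B gene, had 54 UMIs at E13.5 and 128 at E12.5, a ratio of 0.430 (0.307 to 0.595). Hist1h2an, an H2A gene, had 39 UMIs at E13.5 and 82 at E12.5, a ratio of 0.484 (0.322 to 0.717). Hist1h2bm and Hist1h2an stood at 0.922 and 0.666 CPM at E13.5. They passed the minimum through their E12.5 level and so had to be lower. Of all genes in that position, 90.4% were at least 1.5-fold lower. The most abundant H3 gene, Hist1h3e, had 3.99 CPM at E13.5 and 5.93 CPM at E12.5, a ratio of 0.673 (0.568 to 0.796). Hist1h4i, the most abundant H4 gene, had 7.51 CPM at E13.5 and 11.6 CPM at E12.5, a ratio of 0.649 (0.575 to 0.733).

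The other 37 members were too scarce to be sized, with 567 UMIs in all at E13.5 and 872 at E12.5, or 9.68 CPM at E13.5 and 14.6 CPM at E12.5. For 35 of them both libraries had UMIs. Of those 35, Hist1h4b, Hist1h2bh and Hist1h2ba, named after their values were seen, were at least 1.5-fold higher at E13.5 and 14 were at least 1.5-fold lower. Over all genes with 3 or more UMIs in each library, 18.5% were at least 1.5-fold higher and 17.5% lower. The share among genes as scarce as these was not computed. Hist2h2aa2 and Hist1h4m were listed at E12.5 alone, with 4 and 3 UMIs. Hist1h2al is annotated as a pseudogene, and a second row of the symbol Hist2h2bb was kept apart from the first.

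**Figure D1:**
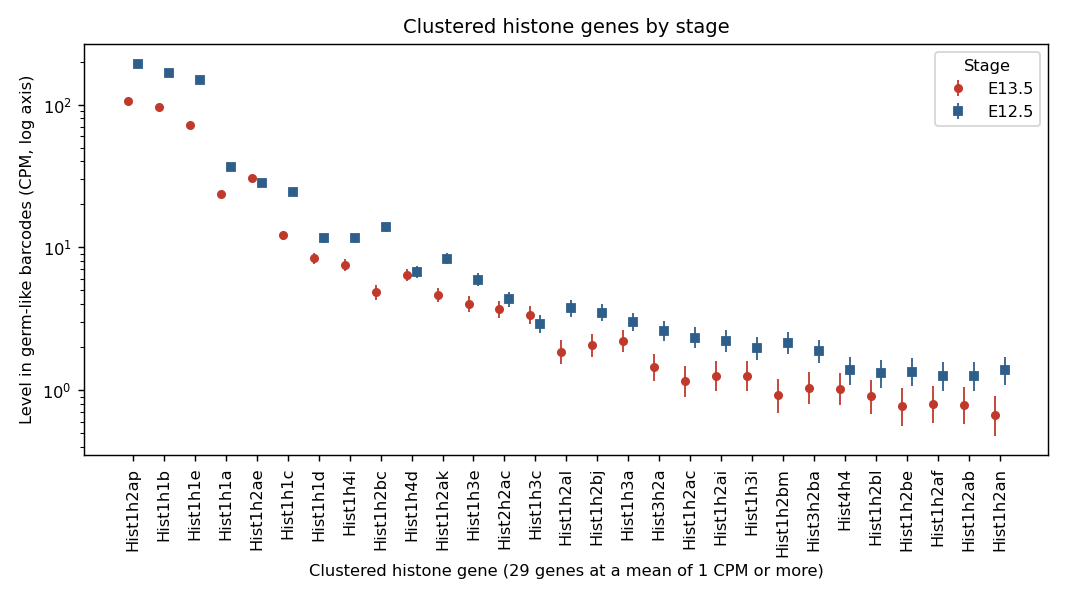
Level of each of the 29 members at a mean of 1 CPM or more, in CPM on a log axis, ordered by mean level; circles are E13.5, squares E12.5 and bars 95% Poisson intervals of the counts. Circles lie under squares for 27 of the 29 genes, and above them for Hist1h2ae (30.5 CPM at E13.5, 28.4 CPM at E12.5) and Hist1h3c (3.38 CPM at E13.5, 2.92 CPM at E12.5).

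Because these genes are near-copies, the separate counts of some members are uncertain. For 8 members, among them Hist1h2ap, Hist1h1e and Hist1h3e, every 50-base stretch of the last 200 bases also occurs in another annotated transcript, and these 8 took 44.4% of member UMIs at E13.5 and 49.4% at E12.5. The sources used here do not say how reads that match several genes were counted. Sums over a class are less affected than single genes where the copies belong to 1 class, but the shared stretch of Hist1h1e lies in a region annotated also to Hist1h2be, an H2B gene.

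High and low levels occurred with every kind of annotated 3′ end. The 21 members whose model ends within 60 bases after the stem-loop took 29.2% of member UMIs at E13.5 and 30.3% at E12.5, a summed ratio of 0.558. The 24 whose model runs on further took 37.3% at E13.5 and 35.8% at E12.5, a ratio of 0.603. The 19 with no stem-loop in the annotated UTR took 33.1% at E13.5 and 33.3% at E12.5, a ratio of 0.576. Most of these 19 models end at the stop codon or a few bases after it, so no stem-loop could be found in them. Hist1h2bc, with an annotated 3′ UTR of 745 bases, is not one of those. Only its annotated transcript of 1156 bases was searched, while the gene spans chr13:23684199-23692908. A stem-loop in the gene but outside that transcript would have been missed. This group is therefore a limit of the annotation and not a set of genes shown to lack a stem-loop. The 3 most abundant genes fell 1 in each group: Hist1h2ap in the first, Hist1h1e among those that run on and Hist1h1b among those with no stem-loop. The 14 members with the polyadenylation signal AATAAA or ATTAAA in their last 50 bases had a ratio of 0.759, against 0.559 over the 50 coding members without it. They include Hist1h2ae, whose own ratio was above 1. The other 13 of them had a ratio of 0.563 (0.529 to 0.6001), with 25.8 CPM at E13.5 and 45.7 CPM at E12.5, close to that of the members without the signal.

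**Figure D2:**
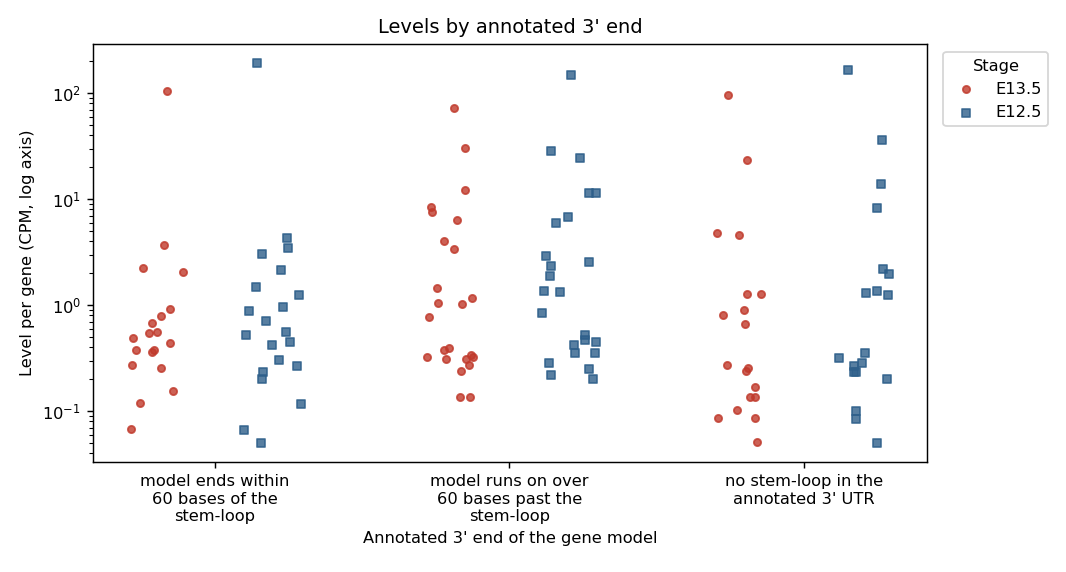
Level of each member in CPM on a log axis, by its annotated 3′ end; circles are E13.5 and squares E12.5, spread sideways for legibility, and members with no UMI are not drawn. All 3 kinds of annotated end include 1 of the 3 most abundant genes and many genes under 1 CPM. Most models with no stem-loop end at or near the stop codon, so none could be found in them.

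The next comparison asked how the levels relate to the cell cycle. Each germ-like cell was thinned to 14500 UMIs and scored with 39 S phase and 51 G2/M genes that include no histone gene, which left 2323 cells at E13.5 and 2325 at E12.5 (231 shallower cells left out at E13.5 and 173 at E12.5). A cell was called S where its S score was above 0 and the larger, G2/M where that score was above 0 and the larger, and neither where both were at or under 0. Such calls are ranges of a score and not phases read from DNA content. At E13.5, 362 cells were called S (15.6%), 1748 G2/M (75.2%) and 213 neither (9.17%). At E12.5, 773 cells were called S (33.2%), 1550 G2/M (66.7%) and 2 neither. Many cells lay within 0.05 of a cut: 86, 297 and 153 cells of S, G2/M and neither at E13.5, and 212, 174 and 0 at E12.5. So the groups blend into each other, and the neither group at E12.5 is too small to use.

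The clustered histone genes were concentrated in S cells in both libraries. At E13.5 they summed to 1091 CPM in S cells, 312 CPM in G2/M cells and 80.7 CPM in cells of neither state. At E12.5 they summed to 1153 CPM in S cells and 503 CPM in G2/M cells, and the 2 cells of neither state held 3 UMIs. S cells were 3.50-fold above G2/M cells at E13.5 (3.41 to 3.59) and 2.29-fold at E12.5 (2.25 to 2.34). At E13.5, S cells were 12.2-fold to 15.1-fold above cells of neither state (the bounds of the interval), and G2/M cells 3.87-fold above them.

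At E13.5, 22 of 28 members sized were at least 1.5-fold higher in S than in G2/M cells and none lower, where 5.92% and 6.94% of all genes were. At E12.5, 24 of 31 were at least 1.5-fold higher and none lower, where 2.18% and 3.82% of all genes were. The median log2 ratio of members was 1.51 at E13.5 and 0.93 at E12.5, with all genes near 0. Against cells of neither state at E13.5, 16 of 19 members sized were at least 1.5-fold higher in S cells (14.1% of all genes). In G2/M cells 16 of 18 were (9.32% of all genes). The minimum level bears on these counts too. Scarce members could pass it through their level in S cells alone, or in G2/M cells where these were set against neither, and then had to be higher there. How many did so was not counted.

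Classes differed in how far S cells stood above G2/M cells. H2A was 4.24-fold higher at E13.5 and 2.72-fold at E12.5, and H1 3.45-fold at E13.5 and 2.19-fold at E12.5. The others were closer to 1: H4 was 1.85-fold higher at E13.5 and 1.63-fold at E12.5, H2B 1.69-fold at E13.5 and 1.57-fold at E12.5, and H3 1.60-fold at E13.5 and 1.43-fold at E12.5. Among genes, Hist1h2ap was 4.34-fold higher in S cells at E13.5 and 2.79-fold at E12.5, and Hist1h2ae 4.51-fold at E13.5 and 2.85-fold at E12.5. Hist1h3c was near even, with 1.08-fold in both libraries. Hist1h2bc was 1.26-fold at E13.5, with an interval that includes 1, and 1.54-fold at E12.5. Among the genes named here with over 100 UMIs in each library, Hist1h3c and Hist1h2bc had the smallest contrast at E13.5.

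Within S cells the libraries were close, and within G2/M cells they were apart. Between S cells of E13.5 and E12.5 the summed ratio was 0.947 (0.924 to 0.970), and between G2/M cells it was 0.620. The first value turned to 1.10 and the second to 0.897 when both scores were centred between the libraries, a setting added after seeing the data, so that the direction in S cells depends on where the cut lies. Of 32 members sized in S cells, Hist1h2ae alone was at least 1.5-fold higher at E13.5 and 8 were at least 1.5-fold lower, where 11.3% and 11% of all genes were. The median was -0.20 on the log2 scale. In G2/M cells none of 24 was at least 1.5-fold higher and 13 were at least 1.5-fold lower, where 13% and 14.7% of all genes were. The median of members there was -0.64. In both states, scarce members could pass the minimum level through E12.5 alone and then had to be lower at E13.5. How many did so was not counted.

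H2B was the class that stayed apart within S cells. Its ratio was 0.541 there, with 20.5 CPM at E13.5 and 38.0 CPM at E12.5, while H1 had 0.914, H2A 1.02, H3 0.935 and H4 0.989. In G2/M cells the ratios were 0.502 for H2B, 0.581 for H1, 0.657 for H2A, 0.836 for H3 and 0.869 for H4. With centred scores H2B kept 0.566 in S and 0.616 in G2/M cells, while H1 and H4 in S cells turned to 1.08 and 1.18, and H3 and H4 in G2/M cells to 1.08 and 1.16. Hist1h2bc accounts for much of the H2B value. In S cells it had 5.77 CPM at E13.5 and 17.9 CPM at E12.5, a ratio of 0.322, and in G2/M cells a ratio of 0.393. Without it the H2B ratio in S cells was 0.737 (0.598 to 0.903).

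Single H1 and H2A genes also differed within states. Hist1h2ae had 93.1 CPM in S cells at E13.5 and 51.3 CPM at E12.5, a ratio of 1.82 (1.65 to 1.998). In G2/M cells its ratio was 1.15 (1.04 to 1.27). By these cuts Hist1h1e was lower in both states, with ratios of 0.774 in S cells and 0.520 in G2/M cells. Along the finer division of the S score below, it was not lower throughout. With centred scores Hist1h2ae had 2.07 in S and 1.84 in G2/M cells. Hist1h1b and Hist1h2ap were close to even in S cells, at 0.963 and 0.919 (1.14 and 1.08 with centred scores). The same genes had 0.626 and 0.592 in G2/M cells. Hist1h1c had 0.905 in S cells and 0.455 in G2/M cells.

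**Figure D3:**
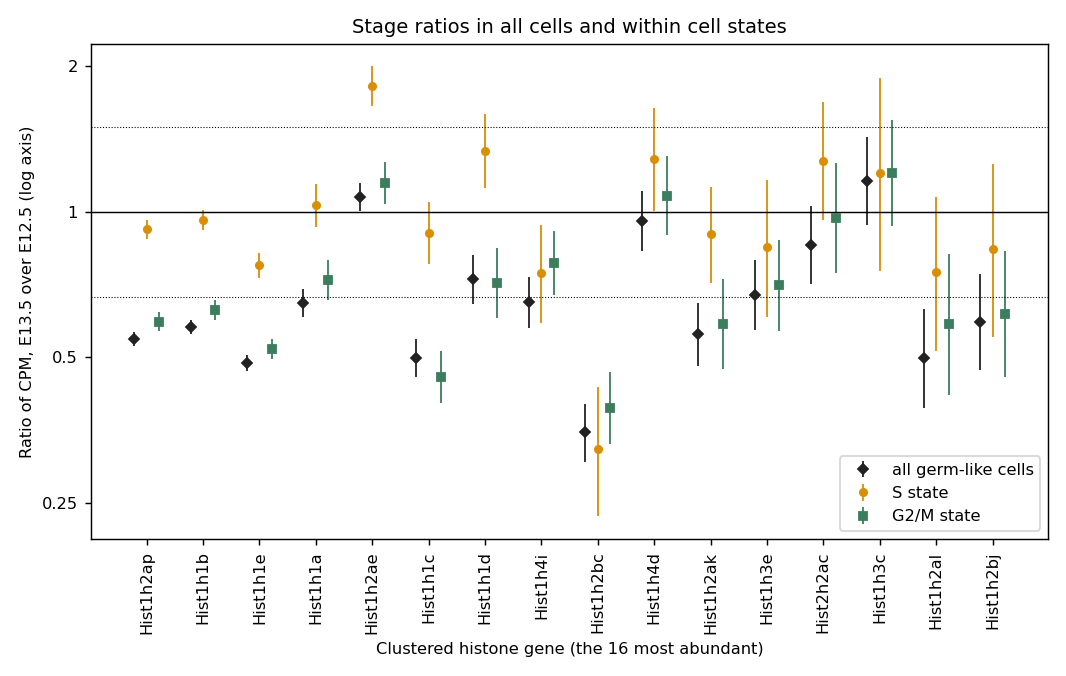
Ratio of CPM, E13.5 over E12.5, on a log axis for the 16 most abundant members, in all germ-like cells (diamonds), S cells (circles) and G2/M cells (squares); bars are 95% counting intervals, the solid line marks no difference and dotted lines 1.5-fold. Hist1h2ae stands at 1.82 in S cells and Hist1h2bc at 0.322, while most others lie nearer to 1 in S cells than in G2/M cells.

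A finer view orders the cells of both libraries by S score and divides them into quintiles. The total climbed along the score in each library. From the lowest to the highest quintile it was 97.5, 156, 357, 1088 and 1367 CPM at E13.5, and 190, 223, 432, 807 and 1215 CPM at E12.5. The highest quintile was 14.0-fold above the lowest at E13.5 and 6.39-fold at E12.5, where the lowest quintile held 44 cells. Cells were unevenly spread: from low to high, 886, 595, 315, 244 and 283 cells at E13.5, and 44, 334, 615, 685 and 647 at E12.5. At E13.5 the lowest quintile held 38.1% of the cells, more than any other.

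The ratio between libraries turned along the score. It was 0.513, 0.702 and 0.825 in the 3 lower quintiles and 1.35 and 1.13 in the 2 upper ones. H1, at 0.418, 0.644, 0.801, 1.38 and 1.07, and H2A, at 0.657, 0.748, 0.870, 1.39 and 1.24, turned likewise. H2B did not, at 0.405, 0.612, 0.588, 0.520 and 0.650, and without Hist1h2bc it was at 0.5002, 0.839, 0.582, 0.846 and 0.883. Without that gene the intervals included 1 in every quintile but the middle one (0.425 to 0.786). The lowest quintile then rested on 10 UMIs at E12.5. Hist1h2ae was 1.60-fold, 2.43-fold and 2.14-fold higher at E13.5 in the 3 upper quintiles. Without it, H2A had ratios of 1.26 and 1.12 in the 2 upper quintiles. Hist1h1e had 1.24 (1.16 to 1.32) and 0.914 (0.860 to 0.971) there.

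**Figure D4:**
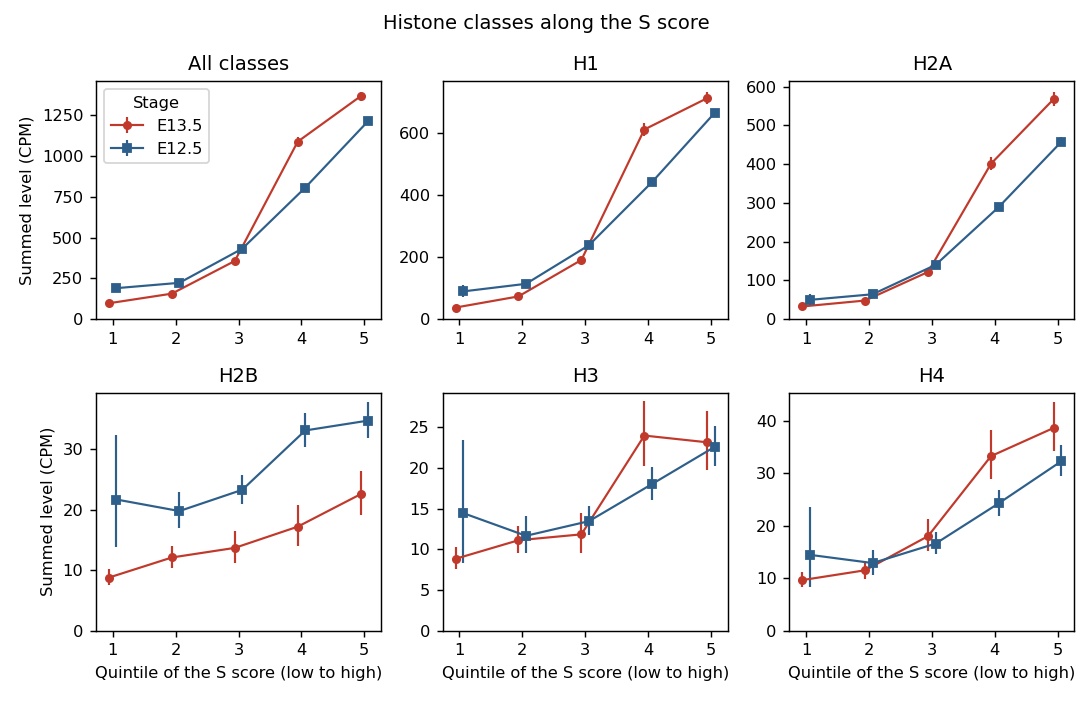
Summed level in CPM by quintile of the S score, low to high, for all members and for each class; circles are E13.5, squares E12.5, and bars 95% Poisson intervals. Total, H1 and H2A lines cross between quintiles 3 and 4, whereas H2B is lower at E13.5 in every quintile. Without Hist1h2bc (not drawn), the interval of the H2B ratio includes 1 in every quintile but the middle one.

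The spread of cells over the states can be set beside the levels. Over cells with a state the total was 413.6 CPM at E13.5 and 707.9 CPM at E12.5. The E13.5 levels of the states, weighted by the shares of UMIs that the states had at E12.5, gave 557.6 CPM, and the E12.5 levels at E13.5 shares gave 570.7 CPM. With quintiles in place of states, E13.5 levels at E12.5 shares gave 796.0 CPM and E12.5 levels at E13.5 shares gave 426.3 CPM. These figures describe 2 libraries and rest on scores whose cuts are arbitrary. In sorted cells, fewer cells in S phase and less histone mRNA in each of them are separated only as well as these scores place the cells.

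From cell to cell the counts were uneven. At 14500 UMIs per cell, the median was 2 member UMIs at E13.5 and 6 at E12.5, the 90th percentile 22 at E13.5 and 26 at E12.5, and the highest cell 49 at E13.5 and 65 at E12.5. Cells with 20 or more member UMIs were 290 of 2323 at E13.5 and 499 of 2325 at E12.5, and 53.4% of them at E13.5 and 59.5% at E12.5 were called S. The median of S cells was 17 in both libraries, and that of G2/M cells 2 at E13.5 and 4 at E12.5. The tenth of cells with the most member UMIs held 48.1% of all member UMIs at E13.5 and 29.5% at E12.5. S cells were thus alike in median count but not in spread. Their 10th percentile was 1 at E13.5 and 3 at E12.5, and 42.8% of them at E13.5 and 38.4% at E12.5 held 20 or more. The library as a whole was more sharply divided at E13.5.

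At least 1 member UMI was seen in 81.7% of cells at E13.5 (exact binomial interval 80.0 to 83.2%) and in 94.4% at E12.5 (93.3 to 95.3%), or 89.5% at E13.5 and 97.6% at E12.5 without thinning. Hist1h2ap was seen in 39.9% of cells at E13.5 (37.9 to 41.9%) and in 70.7% at E12.5 (68.8 to 72.6%), or 48.5% at E13.5 and 78.6% at E12.5 without thinning. Hist1h2bc was seen in 6.24% at E13.5 (5.29 to 7.30%) and in 15.4% at E12.5 (13.9 to 16.9%), or 9.48% at E13.5 and 22.3% at E12.5 without thinning. No cell type lacks histone genes, so free RNA from broken cells could not be bounded. In barcodes with under 500 genes, members stood at 161 CPM at E13.5 (25 UMIs) and 259 CPM at E12.5 (20 UMIs). Those levels exceed the 80.7 CPM of cells in neither state at E13.5, so the share of cells with a UMI is no measure of cells that make histone mRNA.

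**Figure D5:**
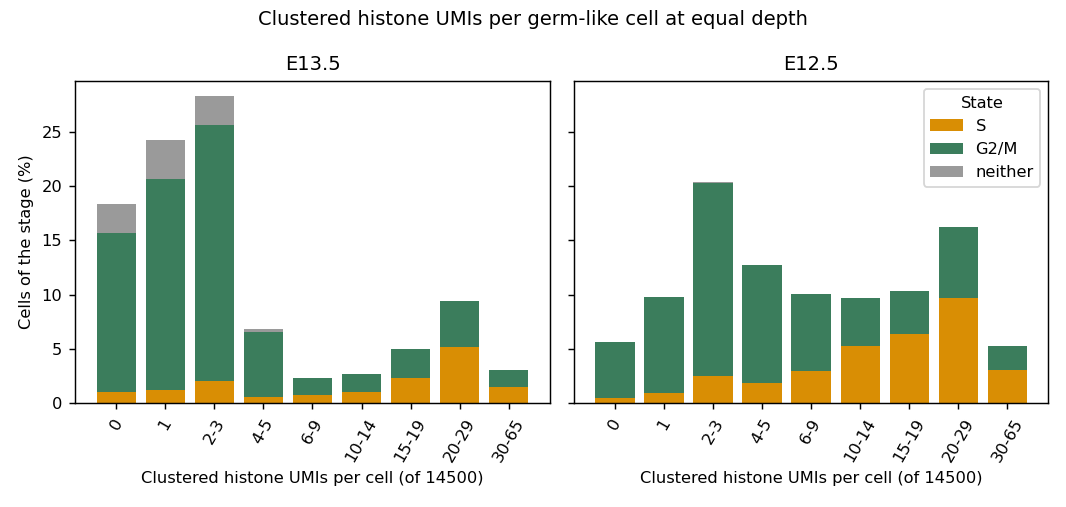
Share of germ-like cells, in percent of each stage, by number of member UMIs per cell after thinning to 14500 UMIs; E13.5 left, E12.5 right, bars stacked by S, G2/M and neither. Cells with 0 to 3 UMIs make up most of E13.5, and cells with 20 or more number 290 at E13.5 and 499 at E12.5.

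The abundant members were correlated across cells, to unequal degrees. Over the 15 pairs of the 6 most abundant genes, Spearman's rho ran from 0.303 to 0.614 at E13.5, with a median of 0.527, and from 0.210 to 0.707 at E12.5, with a median of 0.449. Pairs with Hist1h1c were the lowest, at 0.303 to 0.321 at E13.5 and 0.210 to 0.296 at E12.5. The rho between Hist1h2ap and Hist1h1b was 0.603 over 2323 cells at E13.5 and 0.707 over 2325 cells at E12.5. Summed members had a rho with the S score of 0.554 at E13.5 and 0.562 at E12.5. With the G2/M score it was 0.242 at E13.5 and -0.469 at E12.5, of opposite sign in the 2 libraries. These are descriptions of cells that share a library and depth.

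Promoters are shown for Hist1h1e and Hist1h1b, abundant genes that were lower at E13.5, and for Hist1h2ae, an abundant gene that was not. Hist1h1e and Hist1h1b are H1 genes and Hist1h2ae is an H2A gene. Differences in their letters therefore cannot be told apart from class, and no link to the stage ratio was tested. The 250 bases before the annotated start are from RefSeq (GRCm38.p6), on the gene's own strand. In Hist1h1e and Hist1h1b, capitals mark matches to the H1 box AAACACA, a motif of linker histone promoters, to CCAAT and to TATAAA. In Hist1h2ae they mark the octamer ATTTGCAT, CCAAT and TATAAA. Every motif was searched on both strands, and TATAAA can be read on the opposite strand as TTTATA.

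Hist1h1e, chr13:23622559-23622808, minus strand: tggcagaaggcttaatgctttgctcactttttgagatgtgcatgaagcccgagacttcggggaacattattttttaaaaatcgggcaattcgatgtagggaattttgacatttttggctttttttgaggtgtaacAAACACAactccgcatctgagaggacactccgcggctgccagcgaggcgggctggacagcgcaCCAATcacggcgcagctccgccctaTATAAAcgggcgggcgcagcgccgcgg

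Hist1h1b, chr13:21780626-21780875, minus strand: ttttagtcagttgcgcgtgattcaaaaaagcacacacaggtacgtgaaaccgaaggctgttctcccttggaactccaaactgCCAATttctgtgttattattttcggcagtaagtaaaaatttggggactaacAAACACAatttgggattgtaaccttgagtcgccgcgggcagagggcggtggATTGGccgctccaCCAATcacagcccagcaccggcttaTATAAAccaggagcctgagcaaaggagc

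Hist1h2ae, chr13:23571221-23571470, minus strand: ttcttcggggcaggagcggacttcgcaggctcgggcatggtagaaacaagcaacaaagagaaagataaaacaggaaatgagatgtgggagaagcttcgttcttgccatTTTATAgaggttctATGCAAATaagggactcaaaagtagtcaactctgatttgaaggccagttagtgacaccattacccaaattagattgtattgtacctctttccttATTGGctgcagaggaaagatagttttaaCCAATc

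In both H1 promoters an H1 box, a CCAAT and a TATAAA stand in that order toward the start, and Hist1h1b has further CCAAT matches. In the Hist1h2ae window the octamer and TTTATA lie further from its start than the CCAAT matches. That window also covers the start of Hist1h2bg, an H2B gene on the plus strand from chr13:23571396. All marked matches lie between the starts of both genes, and which gene they serve was not tested. RefSeq promoters, from 250 bases before to 50 after the start, could be matched for 58 of the 66 members. CCAAT was found in all 6 H1, 16 H2A, 14 H2B and 10 H3 promoters but in 3 of 12 H4 promoters, against 37.4% of 32851 promoters in the table. The H1 box was found in 5 of 6 H1, 2 of 16 H2A, 2 of 14 H2B and no H3 or H4 promoter, against 7.18% of all. The octamer, which Pou2f1 and related factors can bind, was found in 7 of 16 H2A and 6 of 14 H2B promoters and in no other class, against 1.74% of all. TATAAA was found in 4 of 6 H1, 10 of 16 H2A, 8 of 14 H2B, 4 of 10 H3 and 8 of 12 H4 promoters, against 13.6% of all. A match is a stretch of letters and not a site shown to be bound.

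Genes that serve histone supply were set beside them. Replacement histones lie outside the clusters, mostly have polyadenylated mRNAs and can enter chromatin without replication. Of 11 such genes, 1 was at least 1.5-fold higher at E13.5, 2 were lower and 8 lay between, near the shares of all genes (27.3% in either direction, 13.8% lower). Together they stood at 5439 CPM at E13.5 and 5457 CPM at E12.5. The median log2 ratio was -0.08. H2afy2, which encodes a macroH2A variant, had 17.5 CPM at E13.5 and 4.56 CPM at E12.5, a ratio of 3.83 (3.35 to 4.39). H3f3b, which encodes a replacement form of H3 and was the most abundant, had 1874 CPM at E13.5 and 1645 CPM at E12.5. Cenpa, the H3 variant of centromeres, had 237 CPM at E13.5 and 380 CPM at E12.5, a ratio of 0.623. H2afj, an H2A variant, had 87.6 CPM at E13.5 and 136 CPM at E12.5, a ratio of 0.644. Summed, replacement histones were level between the libraries where the clustered genes were not.

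Of 24 measured genes for histone gene transcription and for the 3′ processing and decay of histone mRNA, 3 were at least 1.5-fold lower at E13.5 and none higher, a count near the 13.8% of all genes that were lower, with a median log2 ratio of -0.07. Slbp was the most abundant of them, with 250.03 CPM at E13.5 and 337 CPM at E12.5, a ratio of 0.743 (0.727 to 0.759). In S cells it stood 2.29-fold above G2/M cells at E13.5 and 1.66-fold at E12.5, in the direction of the histone genes. Mif4gd, which binds Slbp and aids translation of histone mRNA, had a ratio of 0.605, and Cpsf2, a subunit of the cleavage complex, 0.640. Pou2f1, an octamer-binding factor, had 1.36 and Tut1, a terminal uridylyltransferase, 1.30.

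Histone chaperones carry new histones to chromatin. Of 23 measured, 3 were at least 1.5-fold lower at E13.5 and none higher, again a count near the 13.8% of all genes, with a median log2 ratio of -0.16. The 3 were Chaf1b (0.585) and Chaf1a (0.632), subunits of the chromatin assembly factor that works at the replication fork, and Mcm2 (0.653), a subunit of the replicative helicase that also binds histones. Chaf1b was 2.85-fold higher in S than in G2/M cells at E13.5 and 2.29-fold at E12.5. Nap1l1, the most abundant chaperone gene, had 839 CPM at E13.5 and 857 CPM at E12.5. Rbbp7, a histone-binding protein, had a ratio of 1.47 and Cabin1, of the complex that deposits that form of H3, 1.39.

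Other cell types and RNA quality were compared as measured. The median mitochondrial share of germ-like cells was 4.68% at E13.5 and 3.86% at E12.5. The 9 erythroid markers summed to 23.1 CPM at E13.5 and 0.285 CPM at E12.5, with 6 of them at 0 at E12.5. Within E13.5 they stood at similar levels in cells with much and with little histone RNA. In cluster 5, the germ-like cluster with the highest histone level at E13.5 (554 cells, 1391 CPM of members), they summed to 22.3 CPM, and in the other 2000 germ-like cells (114 CPM of members) to 23.4 CPM. By state they summed to 23.0 CPM in S cells, 23.1 CPM in G2/M cells and 24.9 CPM in cells of neither. The 5 endothelial markers measured summed to 36.9 CPM at E13.5 and 96.9 CPM at E12.5. The 14 germ cell markers summed to 7605 CPM at E13.5 and 7330 CPM at E12.5. Clustered histone genes stood at 693 CPM in the 25 Sertoli-like barcodes at E13.5 and 259 CPM in the 4 at E12.5. The part of these differences in the histone levels was not tested.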

How the data were processed

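Each library's table holds raw UMI counts per gene and barcode, as the authors deposited them, unnormalised; Cell Ranger (version not given) and mm10 (GRCm38) are named in the submitters' processing notes. The gene annotation and the treatment of multi-mapped reads are not given in the sources used here. The members and gene lists were chosen with earlier results of these data known.

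Barcodes with at least 500 genes and less than 10% mitochondrial UMIs were log-normalised to 10000 and clustered (scanpy 1.11.5, leidenalg 0.10.2; 30 components of 2000 variable genes, 15 neighbours, resolution 0.5, no integration), and clusters were named from marker lists. Barcodes with 0.5% or more macrophage or erythroid marker UMIs were left out (1 at E13.5, 3 at E12.5). Scrublet called 27 doublets at E13.5 and 65 at E12.5, which were kept. An unnamed low-UMI cluster (90 barcodes at E13.5, 116 at E12.5) stayed out.

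Counts were summed over germ-like cells. With 1 library a stage no test was possible, and at least 1.5-fold is a class of size, for genes at a mean of 1 CPM or more with 3 or more UMIs in each library. Intervals are exact Poisson, binomial (Clopper-Pearson) or conditional binomial, at 95%, and were checked on simulated counts. UMIs count transcript ends, so levels were not divided by length. Cells were thinned without replacement and scored with scanpy's score_genes_cell_cycle. Genes named were those at a mean of 10 CPM or more, the 3 highest and 3 lowest ratios among genes sized, those listed for 1 library alone and the most abundant of each class. From the other lists they were the most abundant and the 2 highest and 2 lowest ratios at 10 CPM or more. Genes of the other lists named beyond this rule were named after their values were seen, as were Hist1h2be and Hist1h2bg.

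Gene models and 3′ ends came from the GENCODE annotation of GRCm38, promoters from RefSeq (GRCm38.p6). The stem-loop was searched as a hairpin of 16 bases after the stop codon. Alternatives were TMM factors (edgeR 4.0.16), other denominators, filters, doublet handling, weights, thinning depths and score cuts.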

Additional observations from a re-analysis of the deposited data

How the results depend on the processing

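The total stayed lower at E13.5 under every alternative run. Its ratio was 0.597 with the 50 most abundant genes, ribosomal protein genes and mitochondrial genes taken out of the denominator, 0.639 with 2000 genes and under 5% mitochondrial UMIs required (1595 cells at E13.5, 2270 at E12.5) and 0.552 with equal weight per cell. It moved less with TMM factors, all barcodes, a rule of 3 germ markers, or without doublets, shared barcodes or the cluster led by p53 targets. All 45 class ratios under these alternatives stayed under 1, and no gene ratio moved by over 1.26 times. With no minimum level, 3 members of 64 were at least 1.5-fold higher and 34 lower, where 18.5% and 17.5% of all genes were, and at 10 CPM or more 5 of 6 were lower, where 8.60% of all genes were.

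Values by state moved more. S over G2/M at E13.5 was 3.63 with scores from each library alone, 3.67 without cells near a cut, 2.74 with shortened score lists, 3.29 with the strict filter, 3.61 with equal weight and 3.83 with centred scores. At E12.5 it was 2.22 unthinned, 2.04 with scores from each library alone, 2.68 without cells near a cut, 2.23 with shortened lists, 2.36 without doublets, 2.22 with equal weight and 3.11 centred. S over neither was 11.6 at E13.5 with shortened lists and 2.83 at E12.5 centred. G2/M over neither at E13.5 was 3.44 with scores from each library alone, 3.33 without cells near a cut and 3.23 centred; at E12.5, where it rested on 2 cells, it turned to 0.909 centred. E13.5 over E12.5 in S cells was 0.873 with scores from each library alone, 0.847 with shortened lists and turned to 1.10 centred. In G2/M cells it was 0.489, 0.690 and 0.897 under these settings, and 0.677 without cells near a cut. The cause of these changes was not tested. S over G2/M itself, centred scores and leaving out shared barcodes or the cluster led by p53 targets were chosen after seeing the data. The share of cells with a member UMI was 34.3% at E13.5 and 59.5% at E12.5 at 2000 UMIs per cell, and 89.5% at E13.5 and 97.6% at E12.5 with no thinning, since depth sets it. No paired analysis was possible because each stage has 1 library.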
